A study of Homo sapiens with 6 samples.

Results

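The 54 genes described here encode the human receptor tyrosine kinases, taken as a list of gene symbols by family membership and grouped by subfamily, with no value in the rule. All 54 were among the 60617 genes listed in each RNA-seq library, and 41 of them had values high enough to be tested, while 13 did not. The 6 libraries came from 1205LuTR, a BRAF-mutant human melanoma cell line that carries an ELK1 reporter, and from PBRT15 and PBRT16, a pair of lines grown from 1205Lu tumors that had become resistant to the BRAF inhibitor PLX8394. Parental 1205LuTR cells received the solvent DMSO and were labelled drug sensitive, both PBRT lines received 500 nM PLX8394 and were labelled resistant, and each group had 2 libraries. All cells grew in MCDB153 medium with L-15, 2% serum and 5 µg/ml insulin, so a ligand of the insulin receptor was present in every group. Each PBRT group is 1 line, and line and drug go together, so the part of each in a difference from parental cells cannot be told apart. Whether the pair of libraries in a group stems from separate cultures is not said in the labels or methods, and the p-values below therefore reflect the spread among these samples alone, which may be technical.

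Receptor tyrosine kinases are membrane proteins that bind a growth factor or a neighbouring cell's ligand outside the cell and carry a tyrosine kinase domain inside it. Ligand binding pairs the receptors, which phosphorylate each other and recruit adaptors that switch on the RAS-ERK and PI3K pathways. In BRAF-mutant melanoma, receptors such as EGFR, PDGFRB, MET and AXL are known from earlier work on tolerance of BRAF inhibitors, and ERBB3 is known as a receptor gene of the neural crest and melanocyte lineage. A few members (ERBB3, PTK7, ROR1, ROR2, RYK, EPHB6 and STYK1) have a kinase domain with little or no known activity.

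The summed value of a library ranged from 27877963 to 29580752, and the 2 libraries of a group correlated at 0.9843 to 0.9859 over genes (genes are no independent replicates). The lineage gene SOX10 had values of 4360 and 4103 in the parental libraries, 0 and 0.791 in PBRT15 and 1.49 and 0.778 in PBRT16. The 9 melanocytic markers, SOX10 included, summed to 16179 and 13045 in parental cells. Their sums were 1469 and 1474 in PBRT15 and 2663 and 2635 in PBRT16. Of the 6 tested, 1 was called higher and 2 lower in PBRT15, and 1 higher and 3 lower in PBRT16. Not all members fell, since MITF was higher in both PBRT lines (109 and 113, 823 and 927, and 2209 and 2159) and TYR was listed at 0 in all libraries. The 7 endothelial markers summed to 171 and 259 in parental cells, then 429 and 498 in PBRT15 and 489 and 472 in PBRT16, and 2 of the 4 tested were called higher and 1 lower in each line. The 7 immune markers summed to 822 and 1264, then 2732 and 2206, then 2151 and 3128, nearly all from CD68, the 1 tested member, which was called higher in both lines. Single members were low, with CD3E at 0 and CDH5 and PTPRC at most 2.76 and 2.72 in any library. Other members of the same lists, such as CD68, were higher. The 6 keratinocyte markers summed to 293 to 369 over all libraries. The 9 fibroblast and pericyte markers summed to 3595 and 3630 in parental cells, then 121304 and 130848 in PBRT15 and 15516 and 20721 in PBRT16, mostly from COL1A1, COL1A2 and THY1 in PBRT15. Of the 8 tested, 6 were called higher and 1 lower in PBRT15, and 3 higher and 1 lower in PBRT16. Of all tested genes, 21.6% were called higher and 19.5% lower in PBRT15, and 21.1% and 19% in PBRT16. A single member, LUM, was at most 4.12 in any library. PDGFRA and PDGFRB are also expressed by fibroblasts and pericytes, and the part of other cell types in the receptor results was not tested. In bulk samples, fewer cells that express a gene and less RNA per cell cannot be told apart.

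Receptors were called in both directions in the resistant lines. Among the 41 tested receptors, 18 (43.9%) were higher and 10 (24.4%) lower in PBRT15 than in parental cells. Of all 16555 tested genes, 21.6% were called higher and 19.5% lower (limma on log2(value + 1), Benjamini-Hochberg adjusted p of at most 0.05). The share of receptors called lower in PBRT15 was thus near that of all genes. In PBRT16, 17 receptors (41.5%) were higher and 14 (34.1%) lower, beside 21.1% and 19% of all tested genes. The median log2 difference of the 41 receptors was 0.65 in PBRT15 and 0.18 in PBRT16, against -0.006 and -0.002 over all tested genes. Of the 41 receptors, 28 reached the minimum value in all 3 groups and 7 in a single group (ERBB3, EPHB1 and ALK in parental cells, TEK in PBRT15, and KIT, KDR and ROS1 in PBRT16). Those 7 could enter the test only because 1 group was high. INSRR and ROR2 reached the minimum value in both PBRT groups but not in parental cells. The counts, and the p-values of these receptors wherever given below, are therefore a description. So are the p-values of the ligand genes TGFA, PDGFD and ANGPT2, which reached the minimum value in 1 group alone. The ligand gene VEGFC reached it in both PBRT groups but not in parental cells, and its p-values are read in the same way. Leaving out parental replicate 1 or 2 reduced the receptors called lower in both lines, and leaving out PBRT16 replicate 2 reduced those called lower in PBRT16. Without either parental library, ERBB3, EPHB1 and ALK missed the minimum value and were not tested. That part of the drop is not a loss of their calls. The share of all tested genes called with a library left out was not counted, here or below, so such counts of receptors are a description. Without PBRT16 replicate 1 or 2, 11 and 9 receptors were called higher in PBRT16.

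Both comparisons use the same parental libraries, so calls shared by the lines are not independent. The share of all tested genes with each joint pattern was not counted, so the joint numbers of receptors are a description. Called higher in both lines were 13 receptors (EGFR, ERBB2, IGF1R, INSRR, PDGFRB, KIT, PTK7, ROR1, ROR2, MET, EPHA4, EPHB2 and EPHB4), and called lower in both were 8 (ERBB3, FGFR1, FGFR4, NTRK2, EPHB1, EPHB3, RYK and ALK). PDGFRA, FGFR3, ROS1 and LTK were called in opposite directions. KDR, FGFR2 and TEK were called in PBRT15 alone, and FLT1, NTRK3, AXL, TYRO3, EPHB6 and STYK1 in PBRT16 alone, which is not a test of the difference between the lines. That difference was called for 10 receptors, 4 higher and 6 lower in PBRT16 than in PBRT15, beside 7.5% and 8.28% of all tested genes. The 4 called higher (KIT, KDR, MET and ROS1) became 2 without either PBRT15 library. Without either PBRT16 library there were 0, since KIT, KDR and ROS1 then missed the minimum value and were not tested, and MET lost its call (adjusted p = 0.0923 and 0.113 without PBRT16 replicate 1 and 2). With a fold of at least 2 required as well, 14 receptors were higher and 9 lower in PBRT15 (13.8% and 9.85% of all tested genes), 15 higher and 9 lower in PBRT16 (13.1% and 9.95%), and 3 higher and 6 lower in PBRT16 than in PBRT15 (4.49% and 4.77%). The 7 receptors called in none of the 3 comparisons were INSR, MST1R, MERTK, EPHA2, EPHA7, DDR1 and DDR2.

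**Figure D1:**
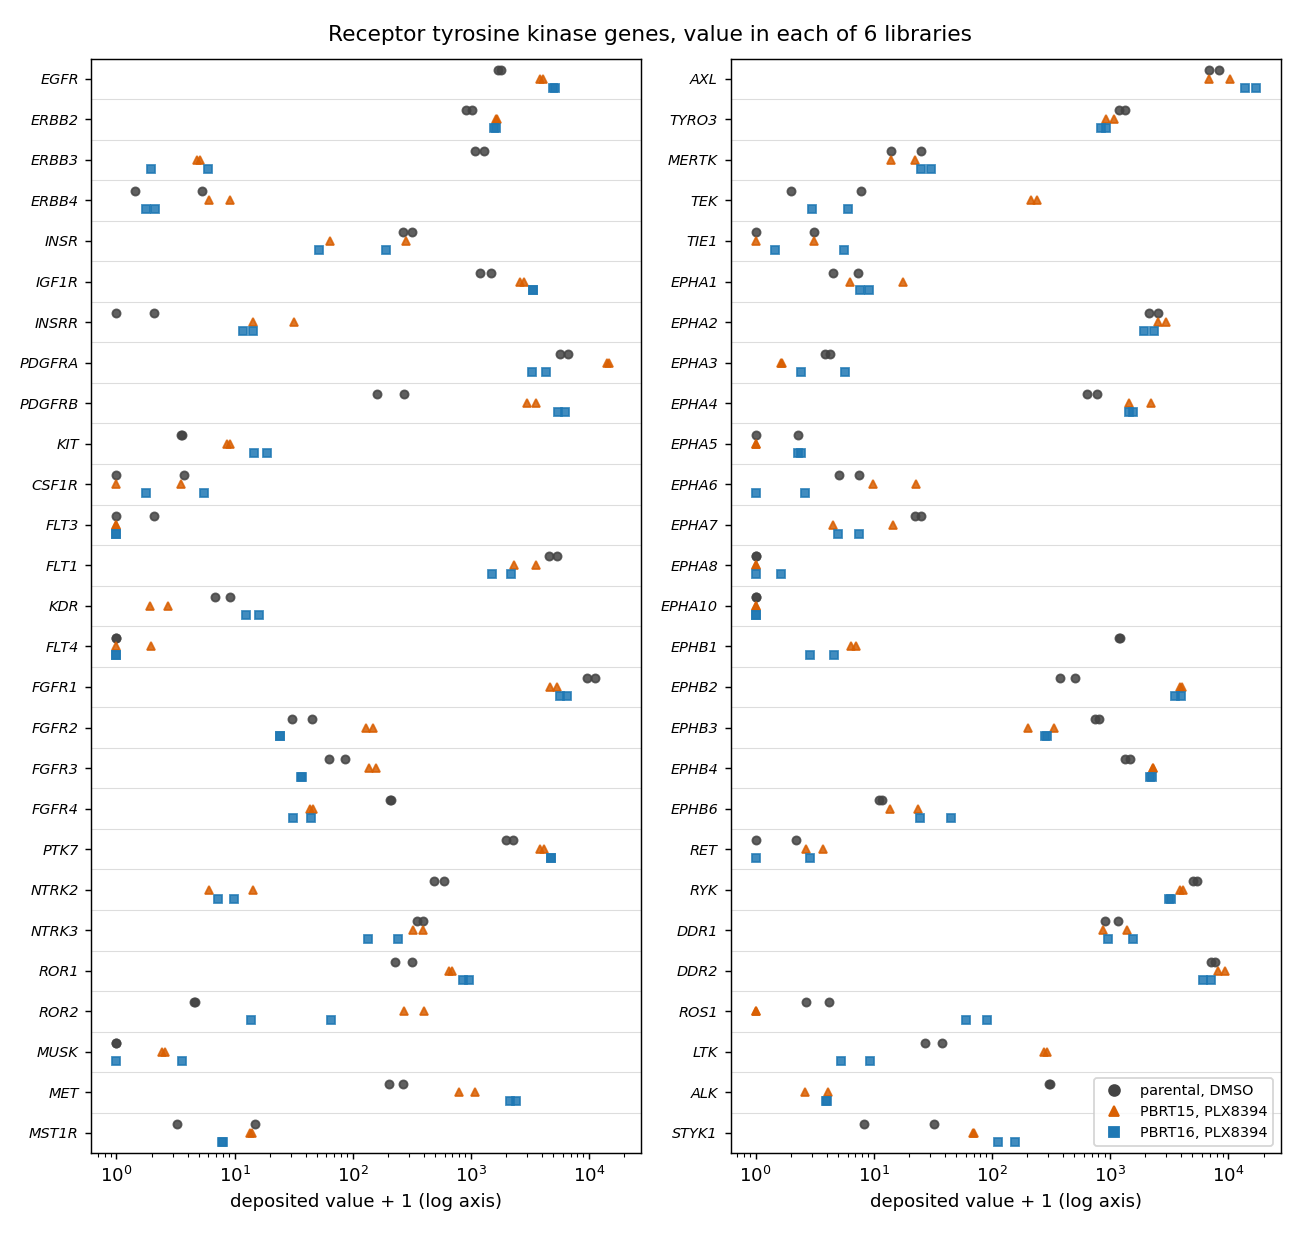
Deposited value plus 1 (log axis) of each of the 54 receptor genes in each library, with circles for parental cells in DMSO, triangles for PBRT15 and squares for PBRT16 in PLX8394, 2 libraries each. ERBB3, NTRK2, EPHB1 and ALK sit at 304 or more in the parental libraries and at 13.3 or less in both lines, while TEK and LTK are high in PBRT15 and ROS1 in PBRT16.

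Promoter sequences are shown for 4 receptors, 2 that fell to near 0 in both lines (EPHB1 and ALK) and 2 that went apart between the lines (PDGFRA and ROR2). Each is the 250 bases before the RefSeq start on GRCh38, 5′ to 3′ on the gene's strand, and capitals mark a match to the AP-1 letters (TGANTCA) in PDGFRA and to the SOX letters (ACAAAG, here as the reverse complement) in ROR2. EPHB1 lies on chr3:134795010-134795259 (plus strand), ALK on chr2:29921587-29921836 (minus strand), PDGFRA on chr4:54229043-54229292 (plus strand) and ROR2 on chr9:91950229-91950478 (minus strand).
EPHB1: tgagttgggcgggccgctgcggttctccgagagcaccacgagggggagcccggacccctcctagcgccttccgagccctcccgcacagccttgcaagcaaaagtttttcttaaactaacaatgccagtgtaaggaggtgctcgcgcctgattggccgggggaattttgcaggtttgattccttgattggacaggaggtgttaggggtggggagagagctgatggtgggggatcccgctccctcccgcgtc
ALK: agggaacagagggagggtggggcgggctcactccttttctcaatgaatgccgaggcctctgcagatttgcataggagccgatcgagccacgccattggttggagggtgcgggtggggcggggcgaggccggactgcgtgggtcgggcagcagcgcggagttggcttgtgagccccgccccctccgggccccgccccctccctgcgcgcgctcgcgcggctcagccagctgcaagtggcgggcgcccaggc
PDGFRA: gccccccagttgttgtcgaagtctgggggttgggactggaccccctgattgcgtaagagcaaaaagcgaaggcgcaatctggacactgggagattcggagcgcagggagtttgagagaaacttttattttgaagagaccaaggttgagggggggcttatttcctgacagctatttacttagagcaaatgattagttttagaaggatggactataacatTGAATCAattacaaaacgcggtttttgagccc
ROR2: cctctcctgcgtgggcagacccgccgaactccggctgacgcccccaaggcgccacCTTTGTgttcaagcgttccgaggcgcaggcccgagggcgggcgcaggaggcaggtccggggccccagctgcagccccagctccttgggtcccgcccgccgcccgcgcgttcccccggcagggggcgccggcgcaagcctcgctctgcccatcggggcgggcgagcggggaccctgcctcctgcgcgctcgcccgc
Of the 54 receptors, 48 had such a window. The SOX letters were in 3 of the 48 (CSF1R, KDR and ROR2), against 13.8% of 34788 distinct windows of all genes. The AP-1 letters were in 3 (ERBB2, PDGFRA and TYRO3), against 6.59%, and the TEAD letters (CATTCC) in 1 (EPHA2), against 11.9%, all on both strands. The ERBB2 window used lies 11970 bases from the start of the canonical transcript, and that of EPHB6 lies 7680 bases from it. The EPHB1 and ALK windows hold none of the 3 motifs, which says only that these letters are not in this stretch. The receptor windows were rich in G and C, with a median of 71.2% (40.0% to 86.8%) against 58.0% over all windows, and the windows shown ran from 46.8% (PDGFRA) over 60.8% (EPHB1) and 71.6% (ALK) to 78% (ROR2).

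In the ERBB subfamily, the receptors of EGF and neuregulins, EGFR and ERBB2 mRNA rose and ERBB3 was nearly lost in both lines. EGFR (GRCh38 chromosome 7, 55019017 to 55211628) had values of 1695 and 1799 in the parental libraries, 3888 and 4115 in PBRT15 and 4959 and 5148 in PBRT16. No PBRT library overlapped the parental ones, and the log2 differences were 1.2 ± 0.11 (SE, adjusted p = 0.00189, limma) in PBRT15 and 1.53 ± 0.11 (adjusted p = 9.7e-04) in PBRT16. ERBB2, the ligandless partner of the other ERBB receptors, had 912 and 1018, then 1630 and 1663, then 1564 and 1647. All 4 PBRT libraries were above the parental ones, by 0.77 ± 0.12 (adjusted p = 0.00778) and 0.74 ± 0.12 (adjusted p = 0.00894) on the log2 scale. Without PBRT16 replicate 2 the ERBB2 call in PBRT16 was lost (0.70, adjusted p = 0.0523).

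ERBB3 (chromosome 12, 56076799 to 56103505), which binds neuregulins and signals through its partners, had 1291 and 1089 in parental cells, then 3.84 and 4.06 in PBRT15 and 0.956 and 4.99 in PBRT16. Each PBRT library lay below 5 and each parental library above 1000, with log2 differences of -7.91 ± 0.53 (adjusted p = 7.7e-04, limma) and -8.44 ± 0.53 (adjusted p = 6.4e-04). PBRT16 and PBRT15 differed by -0.53 ± 0.53 (adjusted p = 0.541), and without PBRT16 replicate 2 it was -1.34 with an adjusted p of 0.0444. ERBB4 stayed between 0.426 and 8.18 in all libraries and was not tested.

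The EGFR ligand gene TGFA went the opposite way to its receptor. It had 22151 and 18245 in parental cells, then 3.20 and 2.92 in PBRT15 and 0.692 and 2.63 in PBRT16, log2 differences of -12.27 ± 0.38 (adjusted p = 1.1e-04, limma) and -12.99 ± 0.38 (adjusted p = 9.0e-05). HBEGF, another ligand of EGFR, fell in PBRT15 (121 and 170 to 62.6 and 51.4, log2 difference -1.33 ± 0.23, adjusted p = 0.0113) and had 139 and 110 in PBRT16 (adjusted p = 0.490). NRG1, a ligand of ERBB3, had 384 and 440, 515 and 389, and 504 and 397, overlapping in all groups. NRG2 fell in both lines (73.7 and 63.8, 43.8 and 33.2, and 32.0 and 25.3, adjusted p = 0.0307 and 0.00961).

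Among the insulin receptors, which drive growth and metabolism, IGF1R rose in both lines. It had 1208 and 1493 in parental cells, then 2601 and 2841 in PBRT15 and 3357 and 3373 in PBRT16, log2 differences of 1.02 ± 0.15 (adjusted p = 0.00673, limma) and 1.32 ± 0.15 (adjusted p = 0.00314) with no overlap. INSR, the receptor of the insulin in the medium, was called in neither line and its libraries were far apart within each PBRT line (264 and 316, 62.7 and 282, and 50.9 and 190, adjusted p = 0.377 and 0.235). The orphan receptor gene INSRR was low throughout but rose from 1.07 and 0 to 13.2 and 30.6 in PBRT15 and 10.8 and 13.2 in PBRT16 (log2 differences 3.88 ± 0.52 and 3.17 ± 0.52, adjusted p = 0.00507 and 0.00921). The IGF1R ligand gene IGF2 had 3172 and 3215 in parental cells and 2042 and 2142 in PBRT15 (adjusted p = 0.0884). In PBRT16 it fell to 5.80 and 9.47 (log2 difference -8.57 ± 0.23, adjusted p = 7.8e-05). IGF1 and INS were listed at 0 in all libraries. IRS2, an adaptor of the insulin and IGF1 receptors, fell from 3018 and 2414 to 189 and 263 in PBRT15 and 107 and 128 in PBRT16 (adjusted p = 6.6e-04 and 3.7e-04).

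The PDGF receptors, which bind platelet-derived growth factors, separated the lines. PDGFRB (chromosome 5, 150113839 to 150155872) rose in both, from 161 and 273 to 3023 and 3557 in PBRT15 and 5447 and 6253 in PBRT16. The groups did not overlap, the log2 differences were 3.96 ± 0.28 (adjusted p = 9.0e-04, limma) and 4.79 ± 0.28 (adjusted p = 5.4e-04), and that between the lines was 0.83 ± 0.28 (adjusted p = 0.118). PDGFRA (chromosome 4, 54229280 to 54298245) had 6708 and 5673 in parental cells, then 14242 and 14763 in PBRT15 and 3324 and 4339 in PBRT16. It was thus highest in PBRT15 and lowest in PBRT16 without overlap, by 1.23 ± 0.18 (adjusted p = 0.00666) and -0.70 ± 0.18 (adjusted p = 0.0344) against parental cells and -1.93 ± 0.18 (adjusted p = 0.00638) between the lines. The fall of PDGFRA in PBRT16 lost its call without any 1 of parental replicates 1 and 2 (-0.58 and -0.82, adjusted p = 0.139 and 0.0680), PBRT15 replicates 1 and 2 (-0.70 in both cases, adjusted p = 0.0599 and 0.0590) and PBRT16 replicate 1 (-0.51, adjusted p = 0.119).

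The PDGF ligand genes also differed between the lines. PDGFB, whose product binds both PDGF receptors, had 3.32 and 19.1 in parental cells, then 0.780 and 1.47 in PBRT15 and 275 and 228 in PBRT16, a rise of 4.75 ± 0.74 in PBRT16 (log2, adjusted p = 0.00792, limma). PDGFD, a ligand of PDGFRB, had a listed value of 0 in each parental library and in 1 PBRT16 library (0.942 in the other), and had 64.3 and 57.6 in PBRT15 (adjusted p = 4.5e-04). The PDGFRA ligand genes PDGFA and PDGFC were lower in PBRT16 than in parental cells (PDGFA 1687 and 1395 to 710 and 935, adjusted p = 0.0225, and PDGFC 726 and 872 to 255 and 348, adjusted p = 0.0167). PDGFC was also lower in PBRT15 (113 and 176, adjusted p = 0.00318), where PDGFA had 2365 and 1997 (adjusted p = 0.107).

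KIT, the stem cell factor receptor that melanocytes need, was low in all groups but rose with no overlap, from 2.57 and 2.50 to 8.10 and 7.66 in PBRT15 and 18.0 and 13.5 in PBRT16. Its log2 differences were 1.33 ± 0.16 (adjusted p = 0.00406, limma) and 2.23 ± 0.16 (adjusted p = 9.8e-04), and 0.90 ± 0.16 between the lines (adjusted p = 0.0296). This last call was lost with no filter on low values, with a prior spread by expression level, with only the compared groups in the fit, and without either parental library (0.90 in both cases, adjusted p = 0.0604 and 0.0610) or either PBRT15 library (0.94 and 0.87, adjusted p = 0.102 and 0.104). Its ligand gene KITLG rose from 115 and 121 to 587 and 718 in PBRT15 and 276 and 387 in PBRT16 (adjusted p = 0.00147 and 0.00636). CSF1R and FLT3 were not tested, with at most 4.46 and 1.07 in any library. Their ligand genes rose all the same, CSF1 from 750 and 857 to 18081 and 20047 in PBRT15 and 18799 and 18952 in PBRT16 (log2 differences 4.57 ± 0.13 and 4.56 ± 0.13, adjusted p = 8.9e-05 and 8.8e-05). IL34, the other CSF1R ligand gene, was listed at 0 in parental cells and had 14.1 and 22.7 in PBRT15 and 176 and 112 in PBRT16, and FLT3LG rose from 10.3 and 21.0 to 141 and 199 and to 88.2 and 84.3. PDGFRA, KIT and KDR lie in this order on chromosome 4, with gaps of 359.0 kb and 337.7 kb between the genes, and followed 3 different patterns over the groups. PDGFRB lies 466 bases from CSF1R on chromosome 5, so the rise of PDGFRB went with a neighbour that stayed near 0.

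Of the VEGF receptors, known from blood and lymph vessels, FLT1 had high values and KDR and FLT4 very low ones. FLT1 had 5417 and 4627 in parental cells, then 3569 and 2316 in PBRT15 and 2198 and 1519 in PBRT16. All PBRT libraries were below the parental ones, and the log2 difference was -1.45 ± 0.29 in PBRT16 (adjusted p = 0.0170, limma) and -0.80 ± 0.29 in PBRT15, past no threshold (adjusted p = 0.0851). The call in PBRT16 was lost without parental replicate 1 or 2 (-1.34 and -1.57, adjusted p = 0.0823 and 0.0560) or PBRT16 replicate 2 (-1.19, adjusted p = 0.0706). KDR had 5.77 and 8.07, then 0.910 and 1.71, then 11.4 and 15.2, lower in PBRT15 by 1.78 ± 0.26 on the log2 scale (adjusted p = 0.00705) and 2.64 ± 0.26 higher in PBRT16 than in PBRT15 (adjusted p = 0.00763). FLT4 was listed at 0 in 5 of the 6 libraries and was not tested. Among their ligands, VEGFA rose in PBRT16 (3550 and 4312 to 8506 and 14262, adjusted p = 0.0344) and VEGFC in both lines (8.58 and 5.06 to 170 and 101 and to 230 and 235, adjusted p = 0.00130 and 7.9e-04). PGF, a ligand of FLT1, fell in both (390 and 381 to 117 and 136 and to 90.5 and 106, adjusted p = 0.00165 and 9.5e-04). The neuropilin co-receptor genes went apart. NRP1 rose from 3903 and 5409 to 9702 and 9955 and to 7977 and 9317 (adjusted p = 0.0122 and 0.0214), and NRP2 fell from 11578 and 9682 to 2211 and 2453 and to 5120 and 4440 (adjusted p = 9.0e-04 and 0.00542).

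Of the FGF receptors, which bind fibroblast growth factors, FGFR1 and FGFR4 fell in both lines, while FGFR2 and FGFR3 rose in PBRT15. FGFR1 had 9641 and 11373 in parental cells, then 5388 and 4724 in PBRT15 and 6565 and 5698 in PBRT16, log2 differences of -1.05 ± 0.16 (adjusted p = 0.00711, limma) and -0.78 ± 0.16 (adjusted p = 0.0175) without overlap. In PBRT16 this call was lost without parental replicate 2 (-0.66, adjusted p = 0.0758) or PBRT16 replicate 2 (-0.67, adjusted p = 0.0836). FGFR4 (chromosome 5, 177086905 to 177098144) had 208 and 211, then 42.6 and 45.1, then 30.1 and 43.8, log2 differences of -2.23 ± 0.20 (adjusted p = 0.00165) and -2.50 ± 0.20 (adjusted p = 0.00123).

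FGFR2 had 29.6 and 44.4 in parental cells, then 147 and 130 in PBRT15 and 23.3 and 23.2 in PBRT16. It was higher in PBRT15 by 1.90 ± 0.22 (adjusted p = 0.00330, limma) and lower in PBRT16 than in PBRT15 by -2.52 ± 0.22 (adjusted p = 0.00531). Against parental cells the PBRT16 value did not pass (-0.62 ± 0.22, adjusted p = 0.0776), and without parental replicate 1 it did (-0.90, adjusted p = 0.0312). FGFR3 followed the same order, with 85.6 and 61.8, 157 and 136, and 35.3 and 36.6 and no overlap between groups. Its log2 differences were 0.99 ± 0.19 (adjusted p = 0.0153), -1.0 ± 0.19 (adjusted p = 0.0154) and, between the lines, -1.99 ± 0.19 (adjusted p = 0.00696). The FGFR3 call in PBRT15 was lost without PBRT15 replicate 1 (0.89, adjusted p = 0.0668) and that in PBRT16 without PBRT16 replicate 1 or 2 (-0.97 and -1.02, adjusted p = 0.0683 and 0.0639). Of 18 FGF ligand genes, 4 were tested and FGF2 rose in PBRT15 (633 and 606 to 1253 and 913, adjusted p = 0.0278) and had 831 and 744 in PBRT16 (adjusted p = 0.201).

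The neurotrophin receptor NTRK2, which binds BDNF, was nearly lost in both lines. NTRK2 (chromosome 9, 84668375 to 85095751) had 485 and 595 in parental cells, then 5.04 and 13.3 in PBRT15 and 6.30 and 8.92 in PBRT16, log2 differences of -5.86 ± 0.44 (adjusted p = 0.00108, limma) and -5.98 ± 0.44 (adjusted p = 0.001). BDNF itself rose, from 86.4 and 67.0 to 2257 and 1873 in PBRT15 and 1279 and 1231 in PBRT16 (log2 differences 4.74 ± 0.18 and 4.03 ± 0.18, adjusted p = 1.7e-04 and 2.6e-04). The receptor and its ligand gene thus moved in opposite directions in both lines, as EGFR and TGFA did with the signs exchanged. NTRK3, which binds NTF3, had 349 and 390, 392 and 322, and 241 and 135, lower in PBRT16 at the edge of the threshold (-1.03 ± 0.30, adjusted p = 0.0497). That call was lost without parental replicate 1 or 2 (-1.11 and -0.95, adjusted p = 0.130 and 0.165), PBRT15 replicate 1 or 2 (-1.03 in both cases, adjusted p = 0.0752 and 0.0741) or PBRT16 replicate 2 (-0.62, adjusted p = 0.106).

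The WNT5A receptors ROR1 and ROR2 and the related PTK7 rose. ROR1 had 228 and 318 in parental cells, then 690 and 653 in PBRT15 and 963 and 861 in PBRT16, log2 differences of 1.31 ± 0.19 (adjusted p = 0.00686, limma) and 1.75 ± 0.19 (adjusted p = 0.00299). PTK7, a receptor of planar cell polarity, had 2003 and 2299, 3830 and 4209, and 4764 and 4829, differences of 0.90 ± 0.13 (adjusted p = 0.00641) and 1.16 ± 0.13 (adjusted p = 0.00312). In neither gene did a PBRT library overlap a parental one. ROR2 (chromosome 9, 91563091 to 91950228) had 3.56 and 3.62 in parental cells, then 270 and 404 in PBRT15 and 12.7 and 64.1 in PBRT16, whose libraries were 5 times apart or more. It rose by 6.17 ± 0.75 in PBRT15 (adjusted p = 0.00385) and 2.70 ± 0.75 in PBRT16 (adjusted p = 0.0424), and was lower in PBRT16 than in PBRT15 by -3.47 ± 0.75 (adjusted p = 0.0428).

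The last of these ROR2 calls were lost when single libraries were left out. In PBRT16 against parental cells this held for parental replicates 1 and 2 (2.69 and 2.71, adjusted p = 0.138 and 0.130) and PBRT15 replicates 1 and 2 (2.70 in both cases, adjusted p = 0.0692 and 0.0683). Between the lines the ROR2 adjusted p was 0.0799 and 0.0805 without parental replicate 1 and 2 (-3.47 in both cases) and 0.125 and 0.146 without PBRT15 replicate 1 and 2 (-3.76 and -3.18). Their ligand gene WNT5A rose from 1253 and 1209 to 15390 and 14115 in PBRT15 and 8854 and 9186 in PBRT16 (log2 differences 3.58 ± 0.11 and 2.87 ± 0.11, adjusted p = 1.2e-04 and 2.0e-04). WNT5B rose from 141 and 117 to 1401 and 985 and to 1616 and 1316 (adjusted p = 9.7e-04 and 7.4e-04). RYK, which also binds WNT proteins, fell instead, from 5419 and 5096 to 4129 and 3904 in PBRT15 and 3258 and 3167 in PBRT16 (-0.39 ± 0.11 and -0.71 ± 0.11, adjusted p = 0.0467 and 0.00837). The RYK call in PBRT15 was lost whichever of the 6 libraries was left out (-0.34 to -0.43, adjusted p from 0.0856 to 0.169). MUSK, the receptor of the nerve-muscle junction, was at most 2.56 in any library.

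**Figure D2:**
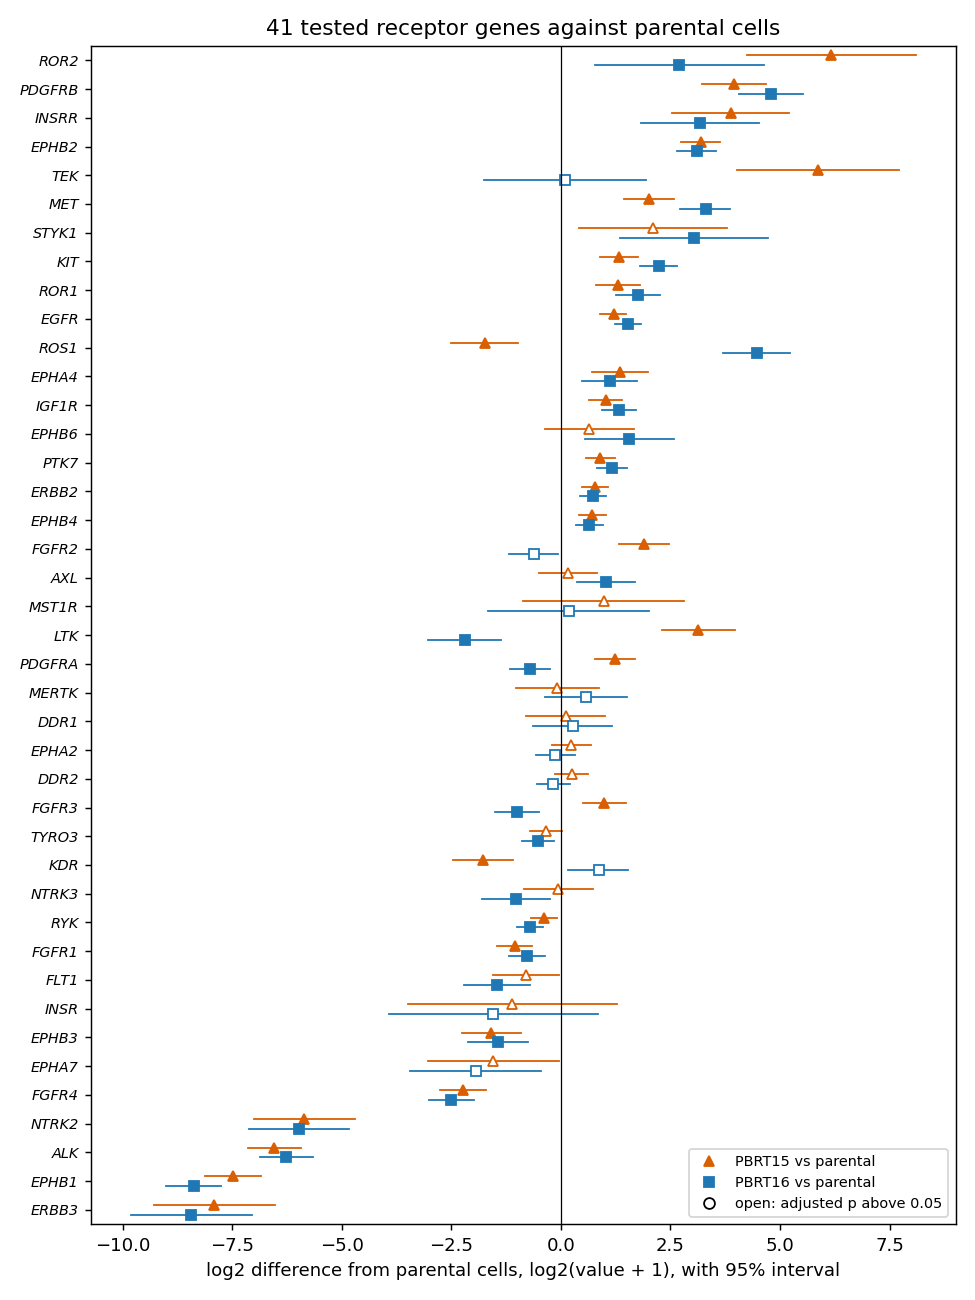
Log2 differences from parental cells with 95% intervals (limma, log2(value + 1)) for the 41 tested receptors, ordered by the mean of both lines, with triangles for PBRT15, squares for PBRT16 and open symbols for an adjusted p above 0.05. The values run from -8.44 for ERBB3 in PBRT16 to 6.17 for ROR2 in PBRT15, and TEK, ROS1 and LTK show the widest gaps between the lines.

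MET, the receptor of hepatocyte growth factor, rose in both lines and further in PBRT16. MET (chromosome 7, 116672196 to 116798377) had 202 and 265 in parental cells, then 1086 and 796 in PBRT15 and 2156 and 2412 in PBRT16, with no overlap between any groups. The log2 differences were 2.00 ± 0.22 (adjusted p = 0.00299, limma) and 3.30 ± 0.22 (adjusted p = 7.6e-04), and 1.29 ± 0.22 between the lines (adjusted p = 0.0260). Between the lines the call was lost with no filter on low values, with the replicate number as a block, and without PBRT15 replicate 1 or 2 (1.52 and 1.07, adjusted p = 0.0531 and 0.0801) or PBRT16 replicate 1 or 2 (1.37 and 1.21, adjusted p = 0.0923 and 0.113). HGF, its ligand gene, was listed at 0 in 5 libraries and had 1.02 in the other. MST1R, the related receptor of MST1, had 2.26 and 14.0, 13.0 and 12.6, and 6.94 and 6.89, and its parental libraries decided its direction. Without parental replicate 2 it was called higher in both lines (2.08 and 1.28, adjusted p = 0.00512 and 0.0121), and without parental replicate 1 it was called lower in PBRT16 (-0.92, adjusted p = 0.0237). Without parental replicate 1 or 2 it was also called lower in PBRT16 than in PBRT15 (-0.80 in both cases, adjusted p = 0.0369 and 0.0373).

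The TAM receptors clear dead cells and bind the bridging ligands GAS6 and PROS1. AXL (chromosome 19, 41219223 to 41261766) had 6859 and 8385 in parental cells, then 10403 and 6847 in PBRT15 and 17090 and 13949 in PBRT16. The PBRT15 libraries overlapped the parental ones (0.15 ± 0.26, adjusted p = 0.656, limma) and both PBRT16 libraries were above them (1.03 ± 0.26, adjusted p = 0.0317), while the difference between the lines did not pass (0.87 ± 0.26, adjusted p = 0.0862). The AXL call was lost without parental replicate 1 or 2 (0.88 and 1.17, adjusted p = 0.132 and 0.0723) or PBRT16 replicate 1 or 2 (0.88 and 1.17, adjusted p = 0.124 and 0.0734). TYRO3 had 1193 and 1344, 932 and 1076, and 923 and 837, lower in PBRT16 by -0.53 ± 0.14 (adjusted p = 0.0399). That call was lost with no filter on low values, with the replicate number as a block, and without parental replicate 1 or 2 (-0.61 and -0.44, adjusted p = 0.0851 and 0.149), PBRT15 replicate 1 (-0.53, adjusted p just above the threshold) or PBRT16 replicate 1 or 2 (-0.60 and -0.46, adjusted p = 0.0922 and 0.160). MERTK lay between 13.1 and 29.4 in all libraries. GAS6 rose from 145 and 141 to 1655 and 1062 in PBRT15 and 931 and 751 in PBRT16 (adjusted p = 0.00117 and 0.00218). PROS1 had 101 and 57.0, 76.8 and 132, and 107 in both PBRT16 libraries. Its PBRT15 libraries overlapped the parental ones and its PBRT16 libraries lay above them, and it was called in neither line (adjusted p = 0.429 and 0.341).

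TEK, the angiopoietin receptor TIE2 of blood vessels, was high in PBRT15 and near 0 in the other groups. TEK (chromosome 9, 27109141 to 27230174) had 1.00 and 6.79 in parental cells, then 242 and 215 in PBRT15 and 1.98 and 5.01 in PBRT16. The PBRT15 libraries stood far above all others, by 5.86 ± 0.72 against parental cells (adjusted p = 0.00392, limma), and PBRT16 was lower than PBRT15 by -5.76 ± 0.72 (adjusted p = 0.0125). Without PBRT16 replicate 1 this last call was lost (-5.25, adjusted p = 0.0603). The ligand gene ANGPT2 had 5.93 and 6.70, 3297 and 2700, and 1.99 and 2.06, a rise of 8.67 ± 0.15 in PBRT15 (adjusted p = 5.0e-05). ANGPT2 entered the test only because PBRT15 was high. Its difference of -1.27 ± 0.15 in PBRT16 (adjusted p = 0.00350) compares values that all lie below the minimum of 10. ANGPT1 had 332 and 312, 672 and 505, and 314 and 374, higher in PBRT15 (adjusted p = 0.0224). The 7 endothelial markers summed to 171 and 259 in parental cells, then 429 and 498 in PBRT15 and 489 and 472 in PBRT16. Among them, PECAM1 and CDH5 had 1.52 and 28, and 0.745 and 0, in the PBRT15 libraries. Of the 4 tested, 2 were called higher and 1 lower in PBRT15. The part of endothelial cells in the TEK values was not tested. TIE1, the partner of TEK, was at most 4.61 in any library and was not tested.

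**Figure D3:**
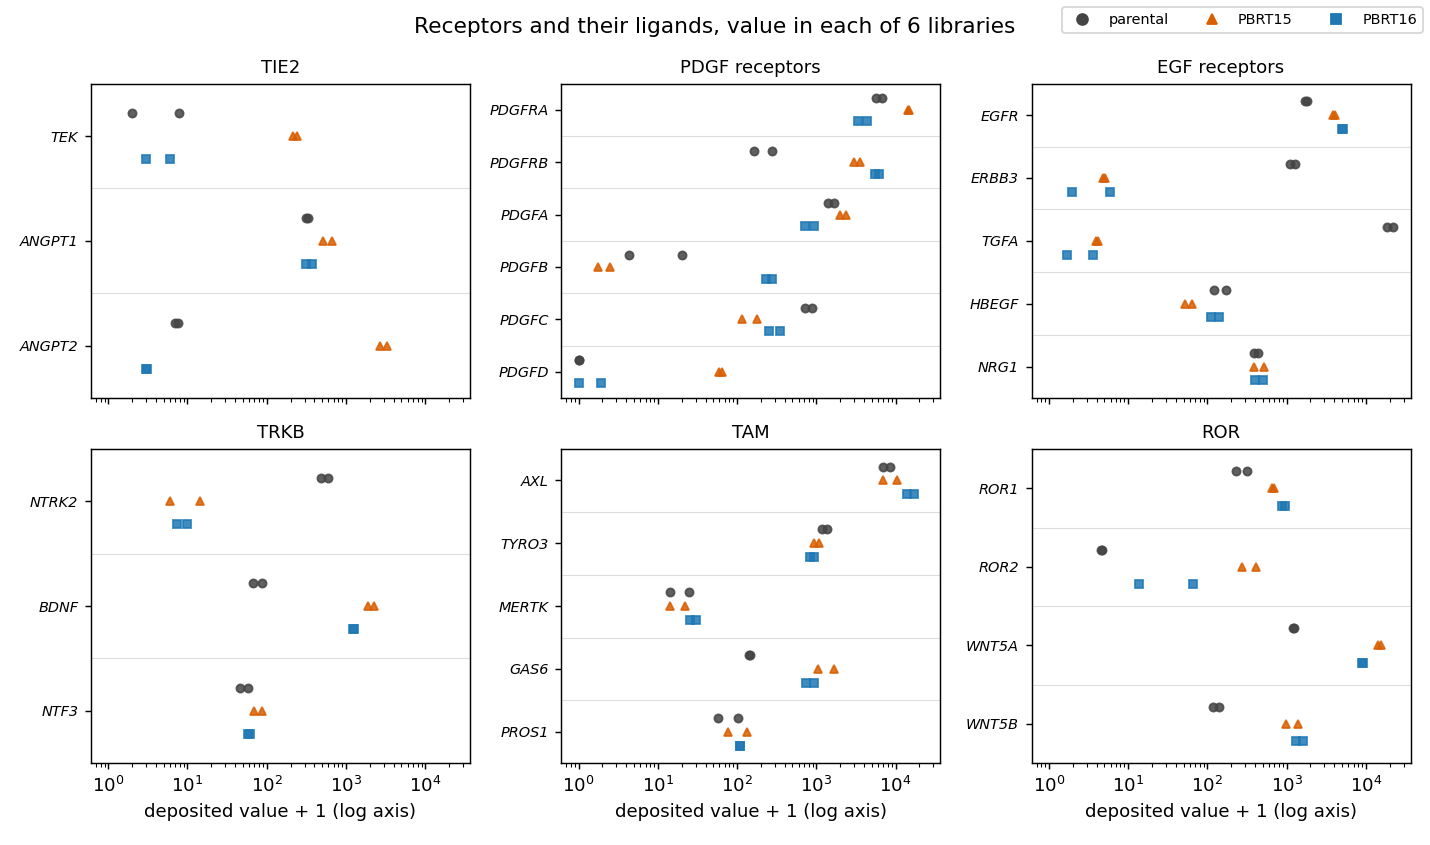
Deposited value plus 1 (log axis) of receptors and their ligand genes in each of the 6 libraries, with circles for parental cells, triangles for PBRT15 and squares for PBRT16. TEK and ANGPT2 are both high in PBRT15 alone, PDGFD sits in PBRT15 and PDGFB in PBRT16, and TGFA and NTRK2 fall in both lines while EGFR and BDNF rise.

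Ephrin receptors, which read membrane-bound ephrins on neighbouring cells, moved in opposite directions within the B class, where EPHB1 was nearly lost and EPHB2 rose. EPHB1 (chromosome 3, 134795260 to 135260467) had 1192 and 1219 in parental cells, then 6.01 and 5.48 in PBRT15 and 3.58 and 1.86 in PBRT16. Its log2 differences were -7.48 ± 0.24 (adjusted p = 1.3e-04, limma) and -8.38 ± 0.24 (adjusted p = 9.0e-05), and that between the lines was called only without PBRT16 replicate 1 (-1.23, adjusted p = 0.0410, against -0.89, adjusted p = 0.0727). EPHB2 (chromosome 1, 22710839 to 22921500) went the other way, from 380 and 501 to 3941 and 4037 and to 3552 and 3961, differences of 3.19 ± 0.17 (adjusted p = 4.3e-04) and 3.10 ± 0.17 (adjusted p = 4.6e-04). For both genes all PBRT libraries lay outside the parental range on the same side. EPHB3 fell, from 807 and 752 to 200 and 334 and to 282 and 292 (-1.59 ± 0.26 and -1.44 ± 0.26, adjusted p = 0.00935 and 0.0126). EPHB4 rose, from 1338 and 1488 to 2297 and 2334 and to 2256 and 2189 (0.71 ± 0.12 and 0.65 ± 0.12, adjusted p = 0.00922 and 0.0120). EPHB6 had 10.7 and 10, 12.6 and 22.5, and 23.7 and 44.3, higher in PBRT16 by 1.56 ± 0.39 (adjusted p = 0.0325).

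Several of these EPHB calls rested on few libraries. The EPHB3 call in PBRT15 was lost without parental replicate 1 (-1.54, adjusted p = 0.0515), and that in PBRT16 without parental replicate 1 or 2 (-1.39 and -1.49, adjusted p = 0.0647 and 0.0522) or PBRT16 replicate 1 or 2 (-1.41 and -1.46, adjusted p = 0.0586 and 0.0553). EPHB4 lost its call in PBRT16 without parental replicate 1 (0.58, adjusted p = 0.0615) or PBRT16 replicate 1 or 2 (0.63 and 0.68, adjusted p = 0.0618 and 0.0552). EPHB6 lost its call without parental replicate 1 or 2 (1.60 and 1.52, adjusted p = 0.110 and 0.114) or PBRT16 replicate 2 (1.12, adjusted p = 0.107).

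In the A class, EPHA4 rose and EPHA2 did not change detectably. EPHA4 had 634 and 780 in parental cells, then 1442 and 2211 in PBRT15 and 1578 and 1457 in PBRT16, log2 differences of 1.34 ± 0.25 (adjusted p = 0.0128, limma) and 1.11 ± 0.25 (adjusted p = 0.0225). Its call in PBRT15 was lost without parental replicate 1 (1.19, adjusted p = 0.0661) and that in PBRT16 without parental replicate 1 or 2 (0.96 and 1.26, adjusted p = 0.102 and 0.0559) or PBRT16 replicate 1 or 2 (1.05 and 1.16, adjusted p = 0.0915 and 0.0770). EPHA2 had 2147 and 2555, 2989 and 2556, and 2354 and 1954, and its 95% intervals were -0.21 to 0.69 in PBRT15 and -0.57 to 0.32 in PBRT16. EPHA7 had 21.3 and 24.1, 13.5 and 3.55, and 6.48 and 3.98. It was called lower in PBRT15 without PBRT15 replicate 1 (-2.38, adjusted p = 0.0139), and in PBRT16 without PBRT15 replicate 1 or 2 (-1.95 in both cases, adjusted p = 0.0103 and 0.00995). EPHA1, EPHA3, EPHA5, EPHA6 and EPHA8 were not tested and reached at most 16.8, 4.67, 1.44, 21.8 and 0.642 in any library, and EPHA10 was listed at 0 in all.

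The 8 ephrin genes, all tested, gave 2 rises and 3 falls in PBRT15, beside 21.6% and 19.5% of all tested genes, and 1 rise and 4 falls in PBRT16, beside 21.1% and 19%. EFNB1, a ligand of the EPHB receptors, rose in both lines (96.7 and 151 to 590 and 806 and to 679 and 809, adjusted p = 0.00310 and 0.00279). EFNB2 had 1583 and 1293 in parental cells and 1842 and 1168 in PBRT15, and fell to 52.9 and 57.3 in PBRT16 (log2 difference -4.67 ± 0.25, adjusted p = 4.4e-04, limma). EFNA5 fell in both (1059 and 922 to 509 and 476 and to 454 and 428, adjusted p = 0.00455 and 0.00303).

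Among the remaining receptors, ALK was nearly lost in both lines, LTK was highest in PBRT15 and ROS1 was highest in PBRT16. ALK (chromosome 2, 29192774 to 29921586), a receptor of the developing nervous system, had 304 and 307 in parental cells, then 1.62 and 3.13 in PBRT15 and 2.92 and 3.00 in PBRT16, log2 differences of -6.54 ± 0.23 (adjusted p = 1.6e-04, limma) and -6.28 ± 0.23 (adjusted p = 1.7e-04). LTK (chromosome 15, 41503637 to 41513887), its closest relative, had 26.4 and 36.8, 291 and 275, and 8.34 and 4.25, so the 3 groups were apart. The LTK differences were 3.14 ± 0.32 (adjusted p = 0.00242), -2.20 ± 0.32 (adjusted p = 0.00678) and, between the lines, -5.34 ± 0.32 (adjusted p = 0.00203). ALKAL1 and ALKAL2, the genes of their ligands, were at most 0.941 in any library. MDK and PTN, secreted factors that have also been linked to ALK, rose in both lines (MDK 148 and 193 to 2217 and 2704 and to 932 and 864, and PTN 803 and 783 to 2935 and 3181 and to 3541 and 3649).

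ROS1 (chromosome 6, 117287353 to 117425942) had 1.68 and 3.18 in parental cells, was listed at 0 in both PBRT15 libraries and had 89.3 and 59.7 in PBRT16. It was higher in PBRT16 than in parental cells by 4.47 ± 0.29 on the log2(value + 1) scale (adjusted p = 7.3e-04, limma) and differed between the lines (adjusted p = 0.00112). The call against parental cells in PBRT15 (adjusted p = 0.0102) compares values of about 3 or less with 0, and no fold is given for it. STYK1, a kinase-like receptor without a known ligand, had 7.30 and 31.2, 70.3 and 68.2, and 157 and 112. It was higher in PBRT16 by 3.03 ± 0.65 (adjusted p = 0.0209), and in PBRT15 the difference of 2.10 ± 0.65 did not pass (adjusted p = 0.0563). Parental replicate 2 was 4 times replicate 1 or more, and without parental replicate 1 or 2 the PBRT15 value was 1.12 and 3.08 and passed (adjusted p = 0.0496 and 0.00704). The STYK1 call in PBRT16 was lost without PBRT16 replicate 1 or 2 (2.79 and 3.27, adjusted p = 0.0872 and 0.0657).

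RET, the receptor of GDNF family ligands, was at most 2.69 in any library, so its mRNA was near 0 in all groups. Its ligand gene GDNF nevertheless fell from 6710 and 4592 to 431 and 555 in PBRT15 and 375 and 329 in PBRT16 (adjusted p = 8.3e-04 and 5.8e-04, limma). The RET co-receptor genes went apart, with GFRA1 rising from 80.5 and 45.2 to 813 and 712 and to 1647 and 1634, and GFRA2 falling from 394 and 365 to 1.34 and 0 and to 10.7 and 5.75. The collagen receptors DDR1 and DDR2 were called in no comparison. DDR1 overlapped in all groups (909 and 1163, 881 and 1403, and 968 and 1578), and DDR2 had 7725 and 7142, 8270 and 9385, and 6088 and 7145 (adjusted p = 0.232 and 0.387).

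Levels of different receptors were compared per kilobase of the canonical transcript. Which transcripts the cells made was not examined, so the ranks and shares depend on these lengths. On this scale the summed receptor value was 10864 and 11472 in parental cells, then 13367 and 12880 in PBRT15 and 13221 and 12823 in PBRT16. The 5 receptors with the highest value per kb held 54.1% to 62.1% of this sum in every library, but they were not the same. In parental cells RYK (16.4% and 14.6%), FGFR1 (15.6% and 17.4%) and AXL (13.4% and 15.5%) led, and their order changed between the 2 libraries. In PBRT15, PDGFRA had the largest share (16.7% and 18.0%), close to AXL in replicate 1 (16.5%) and above it in replicate 2 (11.3%). AXL led in both PBRT16 libraries (27.4% and 23.1%), and the next 4 there, which were FGFR1, PTK7, RYK and PDGFRB, had 7.23% to 8.92% each and changed order between the libraries. The FGF receptors together held 16.4% and 18.2% in parental cells, then 7.69% and 7.01% in PBRT15 and 8.89% and 8.02% in PBRT16. PDGF receptors held 9.95% and 8.18%, 20.7% and 22.8%, and 11.2% and 13.9%. The TRK genes held 0.676% and 0.768% in parental cells and at most 0.151% in a PBRT library.

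**Figure D4:**
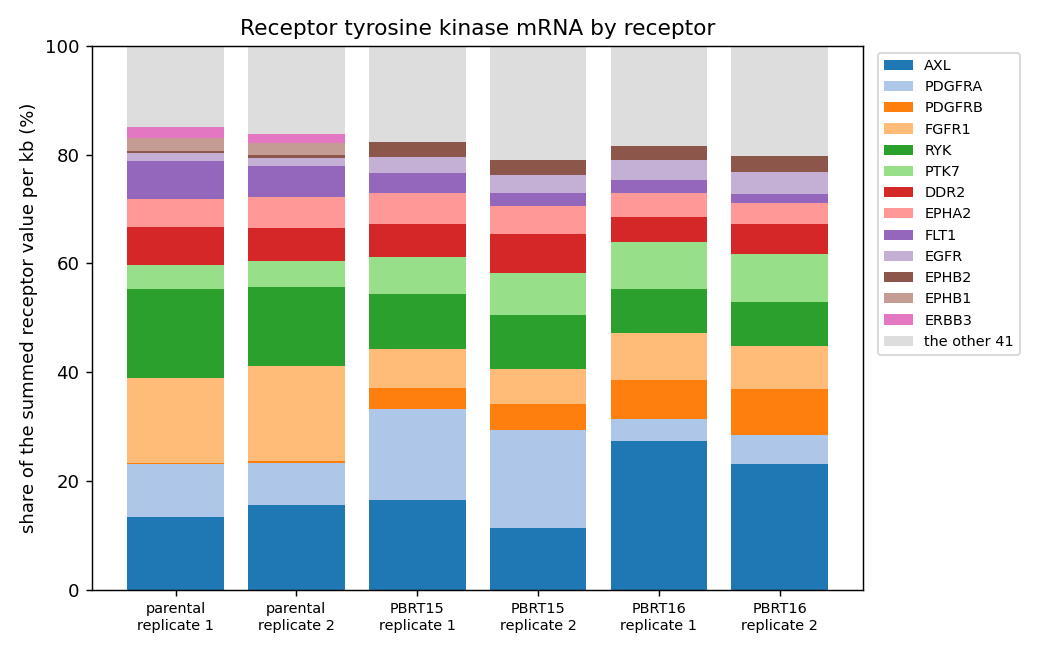
Share of the summed receptor value per kb of transcript (percent, stacked to 100) held by 13 receptors and by the other 41 together, 1 bar per library. AXL takes 27.4% and 23.1% in the PBRT16 libraries, PDGFRA 16.7% and 18.0% in PBRT15, and FGFR1 and RYK shrink in both lines.

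The lists of pathway genes around the receptors held calls in both directions, to be read beside the 21.6% higher and 19.5% lower of all tested genes in PBRT15 and the 21.1% and 19% in PBRT16. Of 46 tested ligand genes, 19 were called higher and 9 lower in PBRT15 and 16 higher and 12 lower in PBRT16 (limma), with median log2 differences of 0.55 and 0.36. Of 41 tested adaptors and effectors, 6 were higher and 10 lower in PBRT15 and 6 higher and 12 lower in PBRT16, with medians of 0.01 and -0.01. The common adaptor gene GRB2 overlapped in all groups (3310 and 3015, 3381 and 3065, and 3306 and 3450). GRB2 was named after its values were seen. Of 30 tested negative regulators, 9 were higher and 12 lower in PBRT15 and 6 higher and 12 lower in PBRT16, with medians of -0.08 and -0.10. Co-receptors (11 tested) had 5 higher and 6 lower, then 5 higher and 4 lower, and the 6 genes of receptor-cleaving proteases had 2 higher and 1 lower in each line.

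Among the negative regulators the largest falls were those of inhibitors of signaling below the receptors. SPRY4, a Sprouty protein induced by ERK that dampens receptor signaling, fell from 17224 and 14983 to 2525 and 2349 in PBRT15 and 33.5 and 39.2 in PBRT16 (log2 differences -2.72 ± 0.14 and -8.75 ± 0.14, adjusted p = 4.1e-04 and 4.6e-05, limma). SH2B3, an inhibitory adaptor, fell from 24803 and 22177 to 6520 and 4736 and to 1816 and 1746 (adjusted p = 0.00171 and 3.7e-04). SPRY2 fell from 4383 and 4374 to 229 and 364 in PBRT16 (adjusted p = 9.2e-04). SOCS3, an inhibitor induced by cytokines, rose from 96.9 and 105 to 2451 and 4604 in PBRT15 and 913 and 1503 in PBRT16 (adjusted p = 0.00111 and 0.00294).

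Receptor differences were also set beside those of the neighbouring genes. Copy number was not measured, and its part was not tested. The median log2 difference of the 20 nearest tested genes, 10 on each side, ran from -0.63 (ROS1) to 0.63 (AXL) in PBRT15 and from -0.70 (DDR2) to 0.42 (INSR) in PBRT16. The receptors ERBB3, EPHB1, ALK, NTRK2, ROR2 and TEK differed from parental cells by more than 5 on the log2 scale in 1 line or both. The neighbour medians in PBRT15 and PBRT16 were 0.57 and 0.11 around ERBB3, 0.17 and 0.38 around EPHB1, and -0.11 and -0.04 around ALK. They were -0.39 and 0.08 around NTRK2, -0.21 and 0.13 around ROR2, and -0.49 and -0.44 around TEK. Around AXL the medians were 0.63 in PBRT15 and 0.14 in PBRT16, while AXL itself was called in PBRT16. DDR2 differed by -0.42 ± 0.15 between the lines (adjusted p = 0.124, limma), beside a median of -0.78 over its neighbours.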

How the data were processed

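RNA-seq libraries of parental 1205LuTR, PBRT15 and PBRT16 cells (2 each) were used. Per the labels and the paper's methods, the authors made stranded libraries and quantified genes with RSEM on GRCh38, and the submitters' notes also name STAR 2.6.1a, Picard and DESeq2. The deposited values are a normalized signal per gene, not whole counts. How they were normalized is not stated in any source read here, so read depth is unknown and no counting interval is given, and low values are the least precise. Gene IDs were matched without version to GENCODE v44, which stands in for the authors' earlier release (60357 of 60617 matched).

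Tests covered the 16555 genes that reached 10 (after scaling to library totals) in 2 or more libraries and summed to 15 or more. A single limma 3.58.1 model (R 4.3.3) of log2(value + 1) held the 6 libraries in 3 groups, without a replicate block, and p-values were adjusted by Benjamini-Hochberg over all genes. A gene was called at an adjusted p of at most 0.05. Fold changes on this scale understate changes of low genes. The ± beside a log2 difference is its standard error. The fit was tested on simulated data. The median-of-ratios factors were between 0.9942 and 1.0069.

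The receptors and the lists of ligands, co-receptors, adaptors, negative regulators, proteases and markers were chosen with earlier results of these data known. Values per library and tests are given for receptors called in any comparison, and other receptors by range. Of the other lists, counts, the 3 largest rises and falls (adjusted p of at most 0.05, mean of at least 50) and cognate ligands could be named. Same-numbered libraries shared only a number (correlations of their deviations 0.018, 0.038 and 0.136). Alternatives were other scaling, pseudocounts, filters, priors and fits, a replicate block, a fold of at least 2 and leaving out each library. Promoter windows are from RefSeq. Protein sequences were not used here.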

Additional observations from a re-analysis of the deposited data

Results flagged for a closer look

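For 10 receptors the difference between the resistant lines, both kept in PLX8394, was itself called (limma, Benjamini-Hochberg adjusted p of at most 0.05). Of the 41 tested receptors, 9.76% were higher and 14.6% lower in PBRT16, beside 7.5% and 8.28% of all tested genes. Lower in PBRT16 than in PBRT15 were PDGFRA (log2 difference -1.93), FGFR2 (-2.52), FGFR3 (-1.99), ROR2 (-3.47), TEK (-5.76) and LTK (-5.34). Higher in PBRT16 were KIT (0.90), KDR (2.64), MET (1.29) and ROS1 (6.21 on the log2(value + 1) scale, with PBRT15 listed at 0). KIT and KDR rested on values of 18.0 or less. KIT, KDR, TEK and ROS1 entered the test only because 1 group was high. The calls of KIT, ROR2, MET and TEK between the lines were lost under some of the alternatives. What these differences go with was not tested.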

How the results depend on the processing

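The 6 counts of called receptors kept within 1.5 times under both scalings, pseudocounts of 0.5 and 5, a prior spread by expression level and 4 libraries in the fit. With no filter, 11 receptors were higher in PBRT16 than in parental cells instead of 17, and 2 instead of 4 in PBRT16 than in PBRT15. A stricter filter on low values also gave 2 for the last count. A fold of at least 2 left 9 lower in PBRT16 instead of 14. Leaving out 1 library at a time gave 16 to 20 higher and 5 to 10 lower receptors in PBRT15, 9 to 16 higher and 5 to 13 lower in PBRT16, and 0 to 3 higher and 4 to 7 lower between the lines, with fewer samples and genes tested. The lone library of a group is then assumed to vary like the others. With the replicate number as a block the counts were 18 and 10 in PBRT15, 18 and 12 in PBRT16 and 3 and 6 between the lines. Apart from the fold of at least 2, the share of all tested genes called under these settings was not counted. Whether receptors lost more calls than other genes did is therefore not known. Of the values for single receptors, 1697 kept their side of the threshold, with the sign checked only where a value was called. Another 112 lost a call, some through the fold of at least 2 alone, and 31 gained one. MST1R in PBRT16 turned from 0.18 to -0.92 without parental replicate 1 and was 1.28 without parental replicate 2.

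Beyond single libraries, RYK in PBRT15 and NTRK3 in PBRT16 also lost their calls with median-of-ratios factors, with no filter, with the block and when only the compared groups were fitted, NTRK3 also with a pseudocount of 0.5, PDGFRA and ROR2 in PBRT16 with no filter and with only the compared groups, PDGFRA and TYRO3 in PBRT16 and MET between the lines with the block, and ROS1 in PBRT15 with a pseudocount of 5. With no filter, FGFR1, AXL, TYRO3, EPHA4, EPHB4, EPHB6 and STYK1 in PBRT16 and KIT, ROR2 and MET between the lines also lost their calls, and KIT and ROR2 also with only the compared groups and KIT with a prior spread by expression level. The cause was not tested. With 2 libraries a group and unknown read depth, small differences and receptors with values near 0 could not be resolved, and a missed threshold does not show that a receptor stayed the same.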

Other observations

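Of the 6 tested receptor-cleaving proteases, 3 were called in neither direction in each line, and values of 4 called genes from the lists above follow. ADAM10, a protease that sheds ligands and receptors from the cell surface, rose from 5917 and 5482 to 11753 and 11864 in PBRT15 and 12061 and 13896 in PBRT16 (log2 differences 1.05 and 1.18, limma adjusted p = 0.00391 and 0.00282). BACE2, another membrane protease, fell from 4834 and 5668 to 1544 and 1450 and to 1798 and 1699. GRB10, an adaptor that dampens insulin and IGF1 receptor signaling, fell from 14919 and 13319 to 5391 and 4680 and to 6164 and 6783 (adjusted p = 0.00192 and 0.00433). UBASH3B, a phosphatase that acts on tyrosine kinases, fell from 6198 and 5586 to 1868 and 1447 and to 829 and 1002 (adjusted p = 0.00233 and 8.4e-04). Receptor protein was not measured in these files.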
